A study of Mus musculus with 3 samples.

Results

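The histone genes of mouse chromosome 13 were examined for open promoters in hair follicle stem cells (HFSCs). They were taken as the protein-coding genes with histone symbols between positions 21600000 and 23800000 of GRCm38, and 52 genes of the 21938 protein-coding genes met this rule. They comprised 6 H1, 12 H2A, 14 H2B, 9 H3 and 11 H4 genes. A further 50 protein-coding genes lay in the same stretch.

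Omni-ATAC-seq, which cuts accessible DNA with Tn5 transposase, was performed on HFSCs sorted from dorsal skin of 6-month-old mice in telogen, when follicles rest. The sort took CD34+ CD49f+ Sca-1- cells. 1 wild-type library (Msx2-WT, here WT) came from C57BL/6J mice, and 2 libraries (Msx2-KO replicates 1 and 2, here KO1 and KO2) from mice with a pMC1-neo cassette inserted upstream of exon 2 of Msx2, which encodes a homeobox transcription factor. With 1 WT library no test between genotypes could be made, and all differences below are descriptions of these 3 libraries. The WT library carries another batch date than KO1 and KO2, so batch and genotype cannot be told apart. The knockout mice were homozygotes bred from heterozygous parents, and the study's methods name no strain for them. A difference of strain or colony could not be told apart from genotype either. The names of the peaks contain cKO in the KO1 and KO2 lists, and in KO1 also a library number that differs from the label. The labels were followed.

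Replication-dependent histone genes supply the proteins that package newly made DNA, and they are transcribed mainly in S phase. H2A, H2B, H3 and H4 form the nucleosome core, and H1 binds the linker DNA between nucleosomes. The genes lack introns as a rule, their mRNAs end in a stem-loop rather than a poly(A) tail, and their transcription depends on NPAT in a nuclear compartment called the histone locus body. HFSCs in telogen are largely quiescent.

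The members differed in the letters before their starts. The 150 bases before the RefSeq start (GRCm38.p6) of 10 members are shown, to set the 5 histone types beside each other and to show the near-identical copies on which the highest values rest. Capitals mark TATAAA on the strand of the gene. On either strand they mark the CCAAT box, the octamer ATGCAAAT, the GC box GGGCGG, the H1 box AAACACA and, chosen after these letters had been read, GGTCCGC, which in Hist1h4k overlaps a GC box.
Hist1h1c (chr13:23738657-23738806, plus strand): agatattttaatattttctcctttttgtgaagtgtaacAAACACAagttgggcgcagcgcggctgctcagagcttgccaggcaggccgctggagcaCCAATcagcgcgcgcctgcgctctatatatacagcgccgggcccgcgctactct
Hist1h1t (chr13:23695661-23695810, plus strand): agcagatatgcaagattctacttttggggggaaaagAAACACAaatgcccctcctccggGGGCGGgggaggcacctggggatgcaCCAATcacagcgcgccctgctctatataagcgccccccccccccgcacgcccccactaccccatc
Hist1h2bq (chr13:21810200-21810349, minus strand): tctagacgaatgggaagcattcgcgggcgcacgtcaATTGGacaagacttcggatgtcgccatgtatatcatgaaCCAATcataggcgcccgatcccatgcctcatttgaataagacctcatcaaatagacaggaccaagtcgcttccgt
Hist1h2br (chr13:21833593-21833742, plus strand): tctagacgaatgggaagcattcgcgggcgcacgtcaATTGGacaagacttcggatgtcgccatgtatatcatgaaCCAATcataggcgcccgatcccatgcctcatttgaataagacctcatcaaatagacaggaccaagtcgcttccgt
Hist1h2bg (chr13:23571250-23571399, plus strand): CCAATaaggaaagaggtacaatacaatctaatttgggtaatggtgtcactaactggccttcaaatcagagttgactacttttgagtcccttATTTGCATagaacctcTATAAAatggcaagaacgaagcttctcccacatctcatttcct
Hist1h3h (chr13:21717478-21717627, plus strand): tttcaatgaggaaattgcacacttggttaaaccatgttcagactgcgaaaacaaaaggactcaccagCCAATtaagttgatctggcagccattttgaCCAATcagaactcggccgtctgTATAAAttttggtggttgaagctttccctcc
Hist1h4c (chr13:23698459-23698608, minus strand): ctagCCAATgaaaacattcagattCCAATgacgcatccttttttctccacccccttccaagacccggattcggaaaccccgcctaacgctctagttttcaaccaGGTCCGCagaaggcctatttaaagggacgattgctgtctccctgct
Hist1h4k (chr13:21750554-21750703, minus strand): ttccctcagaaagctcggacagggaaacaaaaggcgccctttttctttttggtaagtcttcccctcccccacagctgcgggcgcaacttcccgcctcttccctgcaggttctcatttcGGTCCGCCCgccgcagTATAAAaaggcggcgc
Hist1h4m (chr13:21811596-21811745, plus strand): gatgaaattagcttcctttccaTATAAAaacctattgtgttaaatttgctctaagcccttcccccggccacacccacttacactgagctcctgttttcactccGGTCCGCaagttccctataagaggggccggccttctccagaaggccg
Hist1h4n (chr13:21832198-21832347, minus strand): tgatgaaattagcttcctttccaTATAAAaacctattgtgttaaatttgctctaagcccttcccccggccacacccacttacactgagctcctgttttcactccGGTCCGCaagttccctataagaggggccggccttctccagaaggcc
The Hist1h2bq and Hist1h2br runs were identical in all 150 bases, and those of Hist1h4m and Hist1h4n in 149 of 149 bases once shifted by 1 base.

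RefSeq promoters of 300 bases, from 250 before to 50 after the start, were found for 48 of the 52 members. Hist1h2ap, Hist1h3f, Hist1h2bc and Hist1h3a had no entry. The CCAAT box, bound by NF-Y, was present in all 6 H1, all 11 H2A, all 13 H2B and all 7 H3 promoters searched but in 3 of 11 H4 promoters, compared with 39.0% of 17492 protein-coding promoters. TATAAA was found in 24 of 48 members against 9.0% of all promoters, and ATGCAAAT, the octamer bound by Oct-1, in 4 H2A and 4 H2B promoters and no other member against 1.71%. The H1 box was found in 5 of 6 H1 promoters, 1 H2A and 1 H2B promoter, against 6.13%. The GC box was found in 8 of 11 H4 promoters and in 18 of the 48 members, against 46.3%. The letters GGTCCGC were found in 8 of 11 H4 promoters and in 10 members in all, against 4.23%. The E2F letters TTTGGCGC were found in no member and in 0.657% of all promoters. The median GC content of the member promoters was 45.2%, from 39.3% in H3 to 51.2% in H1, compared with 56.3% over all promoters. A match is a run of letters and not a measured binding site.

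Letters of the histone mRNA stem-loop, searched with 3 free positions, lay within 200 bases after the coding end of 47 of the 52 members, compared with 63 of all 21938 protein-coding genes. The run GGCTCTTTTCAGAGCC was carried by 32 members, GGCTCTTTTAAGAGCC by 7, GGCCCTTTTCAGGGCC by 7 and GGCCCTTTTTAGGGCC by 1, the last 8 all H4 genes.

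Most histone promoters were open in every library. A promoter was counted as having a peak when a summit with a −log10 q above 2 lay within 1500 bases of a start. In WT 50 of 52 members had a promoter peak (96.2%, 95% Wilson interval 87.0 to 98.9), against 47.2% of all protein-coding genes. In KO1 the count was 39 (75%, 61.8 to 84.8), against 38.0%, and in KO2 it was 47 (90.4%, 79.4 to 95.8), against 53.7%. The share of histone promoters was above that of all promoters in each library. These intervals treat the members as independent, which they are not, since neighbours share peaks. The 50 members in WT rested on 35 distinct summits, the 39 in KO1 on 25, and the 47 in KO2 on 34. Within 500 bases of the start a summit was found for 44 members in WT, 34 in KO1 and 44 in KO2. Among the 21886 other protein-coding genes the counts were 9681, 7730 and 10936.

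Depth differed between the libraries. The deposited files give no read totals, so depth was read from the commonest local background at a summit, which was 1.738 tags in WT, 0.476 in KO1 and 0.79 in KO2. A tag is a Tn5 cut extended to 200 bases. When the tags were thinned to the shallowest background, in a single random draw, 36 members had a peak in WT, 39 in KO1 and 43 in KO2. WT thus changed from the highest count to the lowest. The shares of all promoters after thinning were not computed.

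By type, all 12 H2A and all 14 H2B genes had a promoter peak in WT and in KO2, and 10 and 13 of them in KO1. All 9 H3 genes had one in WT, 6 in KO1 and 7 in KO2. All 11 H4 genes had one in WT, 6 in KO1 and 10 in KO2. Of the 6 H1 genes, the same 4 had a promoter peak in each library. With 6 to 14 genes a type, the intervals of the 5 types overlapped in each library.

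**Figure D1:**
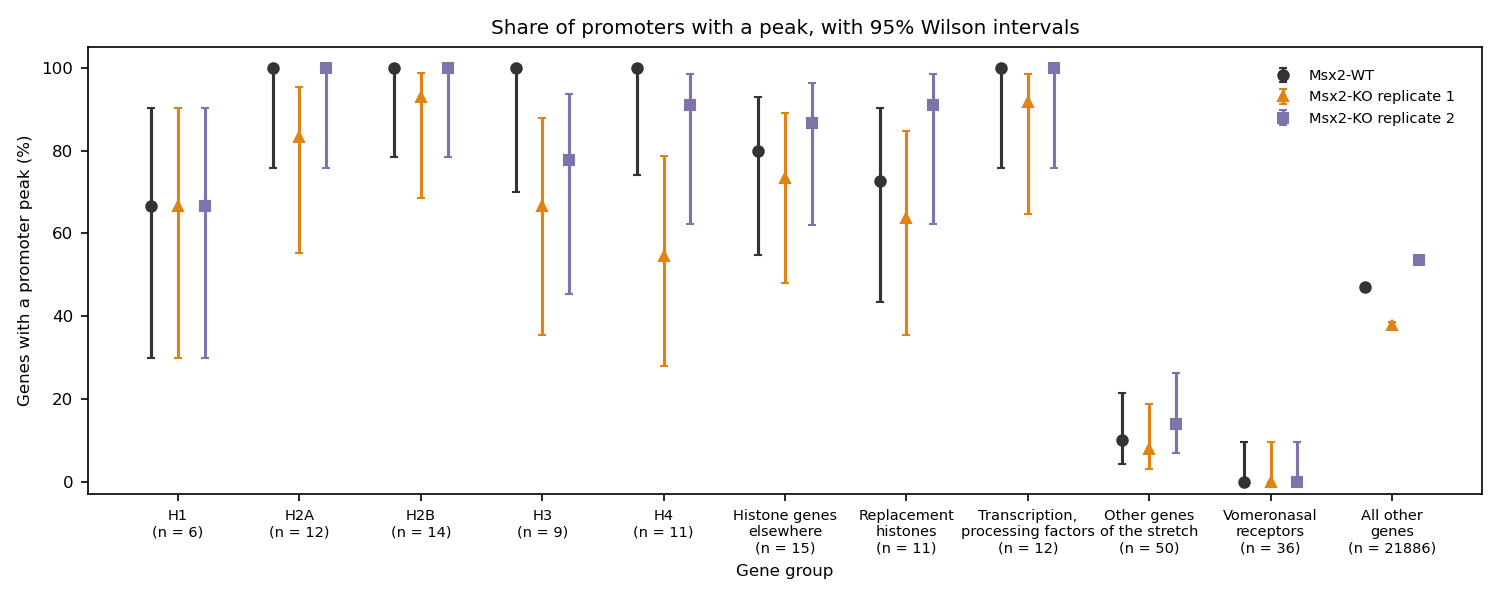
Share of genes with a promoter peak (%) by gene group and library, with 95% Wilson intervals; n is the number of genes. The H2A and H2B groups sit at 83.3% or above in every library, and the 36 vomeronasal receptor genes between the histone blocks sit at 0.

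Levels were compared as tags at the summit nearest to the start, divided by the background of the library. In WT the median over members with a peak was 19.6 times background for H2A and for H2B genes, 16.1 for H1, 13.8 for H4 and 13.2 for H3. In KO1 these medians were 36.8 for H2A, 39.9 for H2B, 37.8 for H1, 32.6 for H4 and 23.1 for H3. In KO2 they were 48.7 for H2A, 45.6 for H2B, 43.7 for H1, 42.4 for H4 and 36.7 for H3. H3 genes had the lowest median in each library. The ranges of the types overlapped in every library, for example 6.90 to 16.1 for H3 and 6.90 to 27.0 for H2A in WT.

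**Figure D2:**
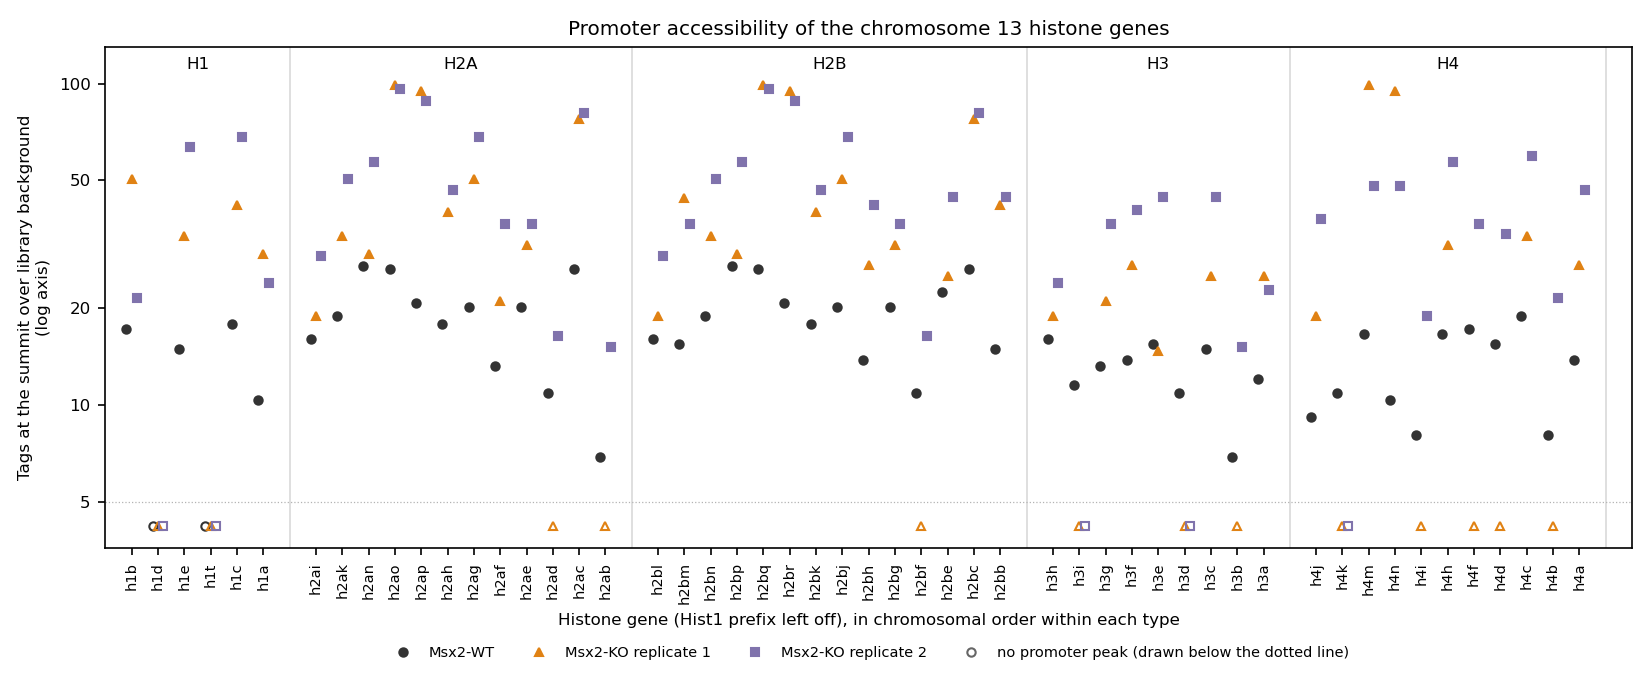
Tags at the nearest summit over the library background (log axis) for each of the 52 histone genes, grouped by type; filled symbols are promoter peaks and open symbols below the dotted line are genes without one. On this scale KO1 and KO2 sit above WT at each gene with peaks in all 3 libraries except Hist1h3e in KO1, and open symbols are most frequent for KO1 among H3 and H4 genes. Neighbouring genes that share a summit carry the same value.

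Among the linker histones, Hist1h1c had the highest mean level. Its summit held 31 tags in WT (95% Poisson interval 21.1 to 44.0), 20 in KO1 (12.2 to 30.9) and 54 in KO2 (40.6 to 70.5), which is 17.8, 42.0 and 68.4 times background. The interval covers counting error only, and duplicate reads were kept by the authors. Hist1h1a was lowest among the H1 genes with a peak in all 3 libraries, with 18, 14 and 19 tags in the same order, or 10.4, 29.4 and 24.1 times background. Hist1h1e held 26, 16 and 50 tags. The summit nearest to Hist1h1b lay 1164 and 1181 bases downstream of its start in WT and KO1, with 30 and 24 tags, and 261 bases downstream in KO2, with 17 tags. The first 2 lie past the 3′ end of the gene.

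No promoter peak was found for Hist1h1d and Hist1h1t in any library. Hist1h1t encodes the H1 of the testis, and no summit, even below the threshold, was listed within 1500 bases of its start at chr13:23695814, where every 50-base word of the window occurred once in the genome. For Hist1h1d the GENCODE start at 23553262 had no listed summit either. Its RefSeq start lies at 23555032, and there a summit of 19 tags was found in WT at a −log10 q of 5.17. The same start had 24 tags in KO2 at a −log10 q of 7.12, and 5 tags in KO1, where the −log10 q of 0.534 did not pass. Thus 1 of the genes without a peak depended on the annotation, which was checked after this gene had been seen to lack one.

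H2A and H2B genes are often arranged head to head, with their starts close together on opposite strands. There were 10 such pairs, with 176 to 302 bases between the starts (median 260). In WT and in KO2 all 10 pairs had 1 summit as the nearest for both genes, and in KO1 the count was 9. The shared summit lay between both starts in 9 of 10 pairs in each library. The exception was Hist1h2bf and Hist1h2ad, whose summit of 19 tags in WT lay 8 bases inside Hist1h2ad and whose summit of 13 tags in KO2 lay 11 bases inside Hist1h2bf. This pair had 6 tags below the threshold in KO1. The extended tags are nearly as long as the gap between the starts, so a summit between them cannot be assigned to either gene.

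**Figure D3:**
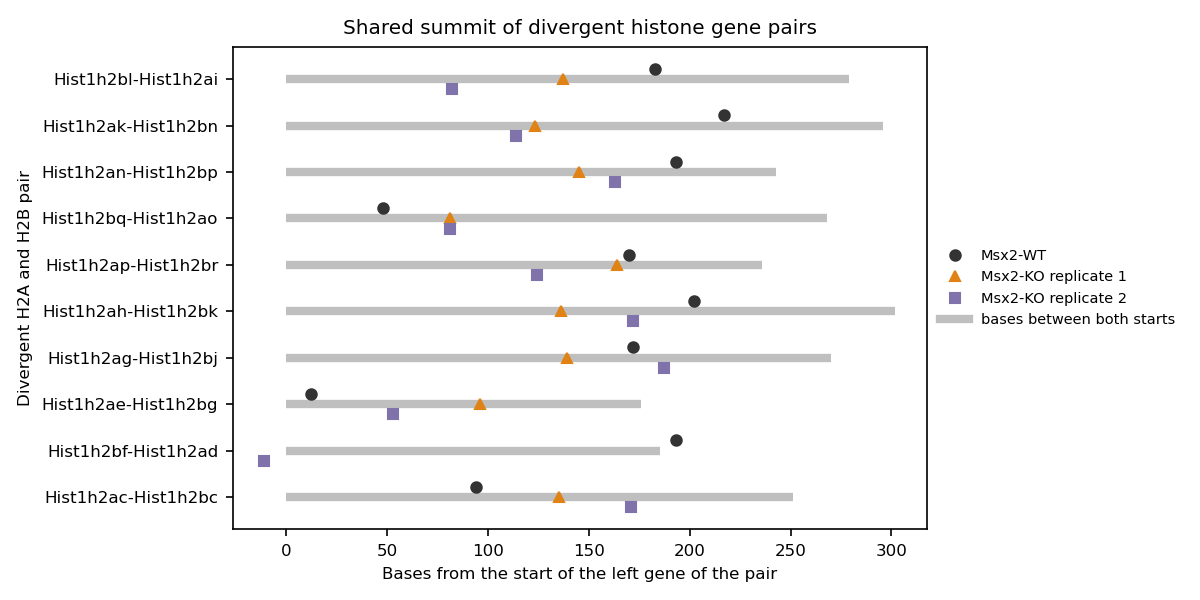
Position of the shared summit in each of the 10 divergent H2A and H2B pairs, in bases from the start of the left gene; grey bars span both starts and symbols mark the libraries. The summits sit within the bar in all pairs except Hist1h2bf-Hist1h2ad.

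Paired genes carried more tags than the rest. The median over the pairs was 20.1 times background in WT, 39.9 in KO1 and 53.8 in KO2. The unpaired members with a peak had medians of 13.8, 27.3 and 38.0 in the same order. Since a pair counts both genes' start regions at 1 place, these medians describe the arrangement and not a single gene.

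The highest level belonged to the pair of Hist1h2bq and Hist1h2ao, with 46 tags in WT, 47 in KO1 and 76 in KO2. These are 26.5, 98.7 and 96.2 times background. The pair of Hist1h2ap and Hist1h2br followed with 36, 45 and 70 tags. Hist1h2ac and Hist1h2bc held 46, 37 and 64 tags, and Hist1h2an and Hist1h2bp held 47, 14 and 45. The last of these ranked first in WT but below the median of both types in KO1. The lowest pair with a peak in every library was Hist1h2bl and Hist1h2ai, with 28, 9 and 23 tags.

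The first 2 of these pairs cannot be told apart by sequence. They belong to 2 near-identical stretches that also hold Hist1h4m and Hist1h4n, and in the 3000-base windows around the starts of these 6 genes 0 to 10.6% of 50-base words occurred once in the genome. An aligner can place reads from either copy at the other, so the values of both copies are uncertain. Over all members the share of words found once in the 3000-base windows had a median of 80.8%, and 21 members were below 80%. In 500-base windows around the start the median was 75.2%, and 34 members were below 80%. The 80% limit used below refers to the 3000-base windows.

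Several H3 genes took the summit of a neighbour. A summit within 500 bases of the start was found for 5 of 9 H3 genes in WT, 5 in KO1 and 6 in KO2, and for Hist1h3f in KO1 it was that of Hist1h2bh, 448 bases upstream. Hist1h3c had the highest mean level of this type, with 26, 12 and 35 tags, but its nearest summits in WT and KO2 lay 1026 and 949 bases upstream, at the start of Hist1h2bb, and only the 12 tags in KO1 were near its own start. Hist1h3h was lowest among the H3 genes with a peak in all 3 libraries, with 28, 9 and 19 tags, of which the first 2 values were those of the Hist1h2bl and Hist1h2ai pair 1333 and 1379 bases upstream. In KO2 it had a summit of its own, 50 bases upstream.

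All 11 H4 genes had a summit within 500 bases of the start in WT, 10 had one in KO2 and 4 in KO1. Hist1h4c held 33 tags in WT, 16 in KO1 and 47 in KO2, at 33, 61 and 48 bases upstream. Hist1h4m had the highest mean of the type with 29, 47 and 38 tags, but the value in KO1 belonged to the summit of the Hist1h2bq pair, 1468 bases upstream. Hist1h4n likewise took 45 tags from the Hist1h2ap pair in that library, 1475 bases upstream. The lowest H4 gene with a peak in each library was Hist1h4j, with 16, 9 and 30 tags.

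**Figure D4:**
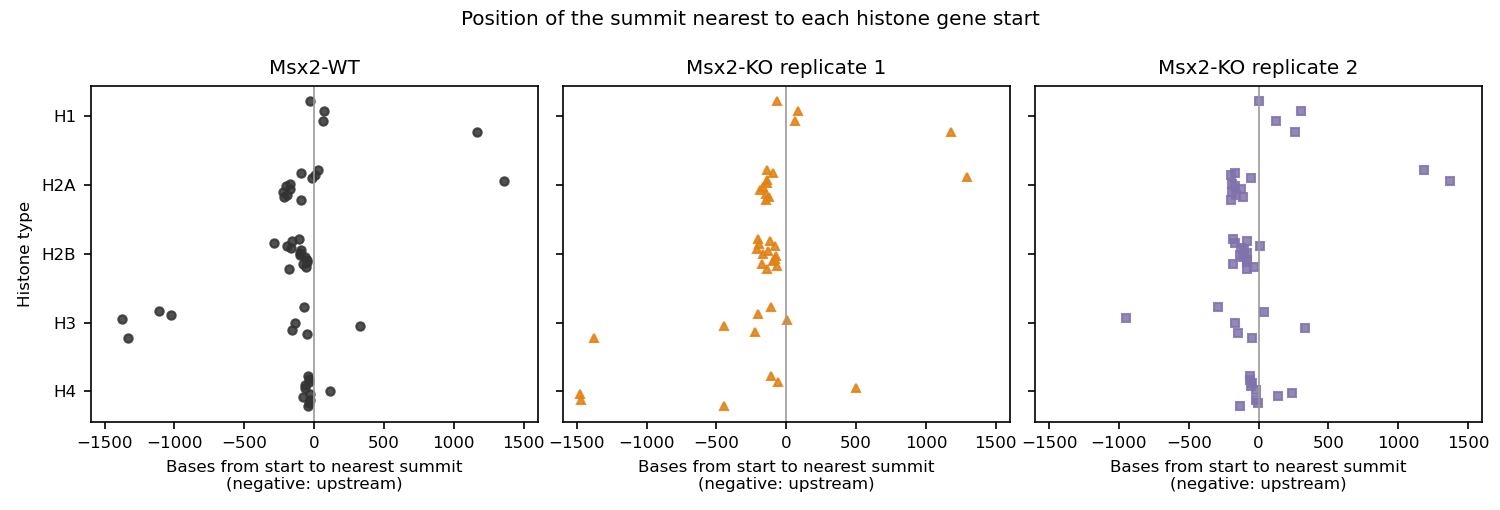
Bases from the start of each histone gene to its nearest summit, by histone type and library; negative values are upstream. Most points lie within 300 bases of the start, and the points beyond 500 bases are summits at a neighbouring histone gene, except those of Hist1h1b in WT and KO1, which lie past its own 3′ end.

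Summits lay upstream of the GENCODE start more often at histone genes than at other genes. In WT 84% of the 50 members with a peak had their summit upstream, compared with 69.3% of other genes with a promoter peak. The shares were 84.6% and 62.9% in KO1 and 76.6% and 58.6% in KO2. The median position was 74, 135 and 81 bases upstream in the 3 libraries, against 41, 39 and 22 bases at other genes. At the RefSeq starts of 48 members the medians were nearer, at 51, 96 and 44 bases upstream. Neither the upstream shares nor the other genes were recomputed at RefSeq starts, so the part of the annotation in this difference was not tested. Of the 4 H1 genes with a peak, 1, 1 and 0 had their summit upstream. The summit of Hist1h1b in WT and KO1 lay past its 3′ end, 1164 and 1181 bases downstream. In KO2 that of Hist1h1a lay 0 bases from the start. In a divergent pair a summit between the starts is upstream of both genes, and without the paired genes the shares were 76.7% of 30 in WT, 71.4% of 21 in KO1 and 63.0% of 27 in KO2. Peaks at members had a median width of 743, 817 and 1296 bases, and other promoter peaks 663, 830 and 1046 bases.

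No histone promoter had a peak in KO1 and KO2 and none in WT, a class that held 2.33% of all promoters. As 50 of the 52 members had a peak in WT, only Hist1h1d and Hist1h1t could have entered this class. A peak in all 3 libraries was found for 39 members, against 35.3% of all promoters, and a peak in WT and KO2 alone for 8, against 9.64%. Those 8 were Hist1h4i, Hist1h4f, Hist1h2bf, Hist1h2ad, Hist1h4d, Hist1h2ab, Hist1h3b and Hist1h4b. For Hist1h2ab and Hist1h3b the libraries had different summits, 29 bases downstream of the start of Hist1h2ab in WT and 41 bases downstream of that of Hist1h3b in KO2. No member had a peak in WT and KO1 alone (0.137% of all promoters), in KO1 alone (0.242%) or in KO2 alone (6.49%), and 2 had none (43.8%). With the tags thinned to the shallowest background, 6 members had a peak in KO1 and KO2 and not in WT. The share of all promoters in this class after thinning was not computed, and the 2.33% above is for tags that were not thinned.

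WT alone had a promoter peak at 3 members, against 2.11% of all promoters. They were 2 H3 genes and 1 H4 gene. Hist1h4k had 19 tags there (11.4 to 29.7) at a −log10 q of 6.26, with its peak at chr13:21750248-21750643. Hist1h3i had 20 tags (12.2 to 30.9) at a −log10 q of 4.34, with its peak at chr13:21783233-21783496. No summit, even below the threshold, was listed within 1500 bases of either gene in KO1 and KO2. The third, Hist1h3d, had 19 tags at a summit 1374 bases upstream, which was that of Hist1h2bf and Hist1h2ad. Without KO1 the count of 3 did not change, and without KO2 it was 11. It was 1 with the tags thinned to the shallowest background and 5 when summits needed a −log10 q of 5 or more.

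The 11 members with a peak in WT but not in KO1 held 12 to 30 tags in WT (median 19). The 39 with a peak in both held 16 to 47 (median 30). At the level over background seen in WT, these 11 promoters would hold 3.29 to 8.22 tags in KO1, where the lowest histone summit that passed, at Hist1h3e, held 7 tags. The value was under 7 at 9 of the 11. Hist1h4f, with 30 tags in WT and 29 in KO2, corresponds to 8.22 tags, and Hist1h4d, with 27 tags in both, to 7.39. By the same scaling the 39 members with a peak in both would hold 4.38 to 12.9 tags in KO1 (median 8.22). Their median log2 ratio of KO1 to WT was 1.04, so the WT level is a low reference for KO1. Whether depth accounts for the missing peaks was not tested.

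At the 39 members with a peak in every library, tags over the library background were higher in Msx2-KO than in WT. The direction of this difference depended on the measure used. The medians were 17.3 times background in WT, 33.6 in KO1 and 46.8 in KO2. The same held for promoters in general, with medians of 16.1, 27.3 and 35.4 over 7696 other genes. The log2 ratio of the Msx2-KO mean to WT had a median of 1.30 at members (quartiles 1.02 and 1.58) and 1.08 over all 7735 promoters (0.64 and 1.51). The ratio was above 0 in all 39 members and in 7309 of the other promoters, and 28 members lay above the median of the other promoters. Each promoter had to have a peak in every library, and the part of this filter in the sign was not tested. The lowest tag number that passed was 9 in WT, 5 in KO1 and 6 in KO2. Over the library background this floor is lowest in WT and highest in KO1, so promoters low in Msx2-KO were left out more readily. The difference of both medians was 0.22. It was 0.12 with KO1 alone and 0.33 with KO2 alone, and 0.07 when only members with at least 80% of words found once were kept. In bulk cells, more cells with an open promoter and a more open promoter in each cell cannot be told apart.

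**Figure D5:**
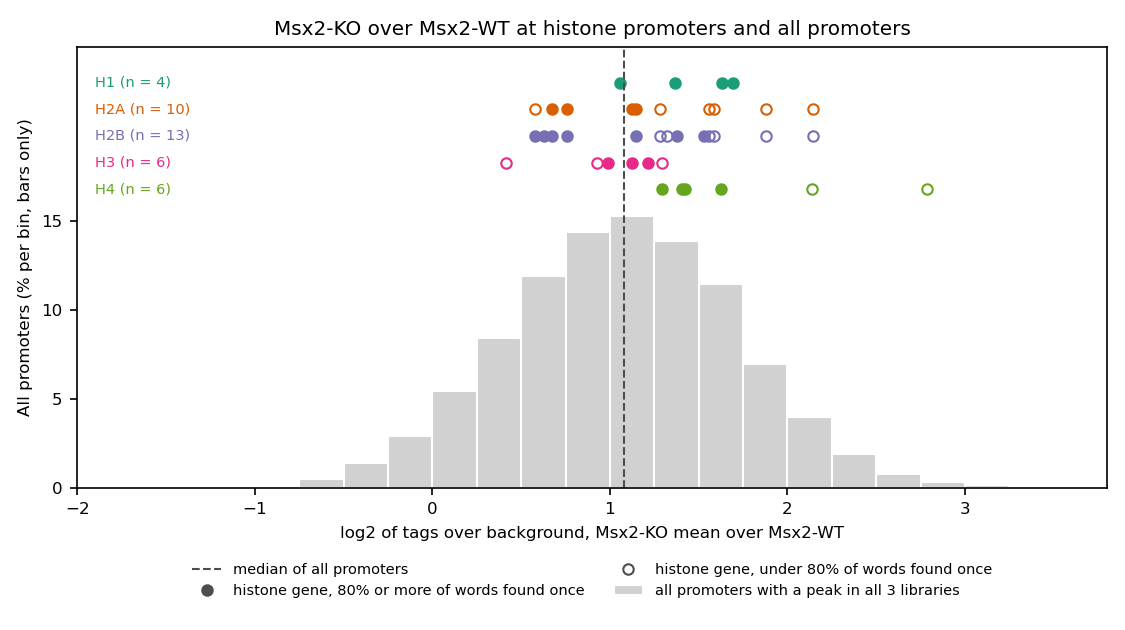
Histogram of the log2 ratio of tags over background, Msx2-KO mean over WT, for all 7735 promoters with a peak in every library (bars, % per bin), with the 39 histone genes as points by type above it. The dashed line is the median of all promoters (1.08); the points to the right of 1.75 are open symbols, genes whose windows have under 80% of 50-base words found once.

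By type, the median log2 ratio was 1.53 for 6 H4 genes, 1.5 for 4 H1 genes, 1.32 for 13 H2B genes, 1.22 for 10 H2A genes and 1.06 for 6 H3 genes. Where the summit lay within 500 bases of the start in all 3 libraries, the medians were 1.42 for 4 H4 genes, 1.63 for 3 H1, 1.32 for 13 H2B, 1.28 for 9 H2A and 1.06 for 4 H3 genes, so H4 no longer had the highest. The largest ratios were 2.78 at Hist1h4n and 2.14 at Hist1h2ap and Hist1h2br, all within the near-identical stretches, and for Hist1h4n the KO1 value was that of the summit 1475 bases away. The smallest were 0.41 at Hist1h3h and 0.58 at Hist1h2bl and Hist1h2ai, which share a summit in part. Between KO1 and KO2, the log2 ratio of replicate 2 to replicate 1 had a median of 0.44 at members and 0.27 at other promoters.

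The fold enrichment deposited by the authors, which uses the local background around each peak, did not place histone promoters above others. By the median ratio of this fold, members lay below WT in KO1 and slightly above WT in KO2. The fold also adds 1 to the tags and to the local background before dividing. The effect of this step was not separated from that of the local background. The median fold was 7.43 at members and 7.67 at other promoters in WT, 6.12 and 6.60 in KO1, and 6.88 and 8.55 in KO2. The local background at members was 2.05, 4.42 and 6.09 times that of the library, and 1.53, 2.38 and 3.11 times at other promoters. On this scale the log2 ratio of the Msx2-KO mean to WT had a median of -0.10 at the 39 members, of which 25 were below 0, and 0.0022 at other promoters. The fold was lower than in WT at 26 members in KO1 and at 17 in KO2. The median log2 ratio to WT at members was -0.21 in KO1 and 0.048 in KO2. At other promoters it was -0.15 and 0.13. The difference from the median of all promoters was -0.11, where tags over the library background gave 0.22.

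The members fell into 3 blocks separated by more than 100000 bases. The first, at chr13:21715763-21837530, held 18 genes, the second, at chr13:22035164-22043676, held 5, and the third, at chr13:23531050-23764406, held 29. All 18 genes of the first block and all 5 of the second had a promoter peak in WT, and 27 of 29 in the third. In KO1 the counts were 16, 4 and 19, and in KO2 they were 16, 5 and 26. The blocks covered 16.5% of the stretch and held 63.8% of its 69 summits in WT, 61.7% of 47 in KO1 and 65.7% of 70 in KO2. This came to 12.1, 7.98 and 12.7 summits per 100000 bases inside the blocks and 1.36, 0.98 and 1.31 outside them.

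The genes between and beside the blocks were mostly without a peak. Of the 50 other protein-coding genes of the stretch, 5 had a promoter peak in WT, 4 in KO1 and 7 in KO2. None of the 36 vomeronasal receptor genes, which serve pheromone sensing, and none of the 5 olfactory receptor genes had one, and for 36 genes the interval reaches up to 9.64%. Zfp322a, a zinc finger gene, held 19, 22 and 46 tags in WT, KO1 and KO2. Abt1, an activator of basal transcription, held 22, 21 and 23 tags, Prss16 11, 18 and 29, and the butyrophilin gene Btn2a2 16, 10 and 24. Hfe, which regulates iron uptake, held 13 tags in WT and 7 in KO2. Zfp184 with 13 tags and Btn1a1 with 8 had a peak in KO2 alone, and Zfp184 was listed below the threshold with 8 tags in WT and 6 in KO1.

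Related genes outside the stretch were mostly open too. Of 15 histone genes elsewhere in the genome, 12, 11 and 13 had a promoter peak in WT, KO1 and KO2. Hist1h2aa and Hist1h2ba, which lie on chromosome 13 beyond 23800000, had no listed summit in any library. Of 11 genes of replacement histones, which are made also outside S phase, 8, 7 and 10 had a peak. H3f3a, H3f3b, H2afz and H2afx were open in all 3 libraries and H1fx in none. H2afz, which encodes H2A.Z, held 47, 46 and 67 tags.

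All 12 genes of histone transcription and mRNA processing had a promoter peak in WT and in KO2, and 11 in KO1. Npat held 61 tags in WT, 20 in KO1 and 58 in KO2. Slbp, which encodes the protein that binds the stem-loop, held 48, 14 and 40 tags. Hinfp, which encodes a factor of H4 transcription, held 60, 16 and 34. Lsm10, a subunit of the U7 particle, lacked a peak in KO1 and held 25 and 18 tags in the other libraries.

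The label of the cells was checked at marker promoters. Of 9 HFSC markers, 8 had a promoter peak in WT, 6 in KO1 and 8 in KO2, with Nfatc1 in none and Cd34 and Krt15 in all but KO1. No leukocyte marker of 4 had one in any library. Melanocyte markers had 2 of 4 in each library, fibroblast markers 2, 1 and 3 of 3, endothelial markers 0, 1 and 1 of 3, and suprabasal markers 1, 0 and 0 of 4. Several of these summits were far from the start. Within 500 bases the counts were 8, 5 and 7 for HFSC, 0, 1 and 1 for melanocyte and 0, 1 and 2 for fibroblast markers. For endothelial markers they were 0 in each library. The part of other cell types in the histone values was not tested. Msx2 itself, on chromosome 13 outside the stretch, had a promoter peak in each library with 15, 9 and 16 tags. The cassette lies upstream of exon 2, so a promoter peak does not check the genotype.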

How the data were processed

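Omni-ATAC-seq peaks of 3 libraries were analysed. Per the study's methods, trimmed reads were aligned by the authors (BWA-MEM, GRCm38) and mitochondrial reads dropped before MACS2 called the peaks of each library, duplicates included. The MACS2 version is not given in the sources used here. The authors deposited a fold enrichment, a −log10 p and a −log10 q per summit, and a score, left aside here, that equals 10 times −log10 p. As the lists reach down to a p-value of 0.01, summits with a −log10 q above 2 were kept, on chromosomes 1 to 19, X and Y. The depth of each library is unknown other than by its background.

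The whole number of tags at a summit was found, within 0.0005, as the one that gives both the fold and the p-value of the file. A number was found for at least 99.9% of summits, and the recovery was tested on simulated data. Tags were divided by the commonest local background of the library. Starts came from the basic protein-coding transcripts of GENCODE M21 (GRCm38), and promoter letters from RefSeq. A 50-base word was called unique when it occurred once in the genome on both strands. Shares have 95% Wilson and tags 95% Poisson intervals.

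Members, gene lists and alternatives were chosen with earlier results of these data known. Genes were named where WT differed from KO1 and KO2 alike, as the highest and lowest of each type, as the 3 largest and 3 smallest ratios, and where no library had a peak. Further genes were named after their values were seen. Alternatives were other thresholds, equal list length, thinned tags, windows of 500 and 3000 bases, interval overlap, outer starts, unique sequence and leaving out each KO library. Analyses used Python 3 with numpy, pandas and scipy.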

Additional observations from a re-analysis of the deposited data

How the results depend on the processing

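No paired analysis was possible because WT and Msx2-KO share only replicate number 1. Of 95 recomputed values, 80 stayed within 1.5 times the reported count or, for the ratio, within the spread between KO1 and KO2, 14 moved further and 1 reversed. The reversed value was the difference of the median log2 ratios, which was -0.11 with the deposited fold over the local background, chosen after seeing the data. Thinned tags also turned the order of the libraries, from 50, 39 and 47 histone promoters in WT, KO1 and KO2 to 36, 39 and 43. A −log10 q of at least 5 gave 5 histone promoters in WT alone and 4 other genes of the stretch in KO2. Keeping every deposited peak gave 21 other genes of the stretch in WT and 16 in KO2, and equal list lengths of 19450 summits gave 4 in the latter. Thinned tags gave 2 other genes in WT and 4 in KO2, 6 histone promoters in KO1 and KO2 and not in WT, and 1 in WT alone. No shares of all promoters were computed after thinning. Among the 31 members with at least 80% of words found once, 29 had a peak in WT, 22 in KO1 and 27 in KO2, fewer because fewer genes were counted, and the difference of the median log2 ratios was 0.071. Leaving out a KO library gave 3 to 11 histone promoters in WT alone, 0 in Msx2-KO and not WT, and a difference of 0.12 to 0.33. The cause of the other shifts was not tested. RefSeq starts and leaving out the 2 copied stretches were chosen after seeing the data, and neither moved a recomputed count or ratio. At RefSeq starts the median summit position lay nearer to the start, at 51, 96 and 44 bases upstream. A depth of 0.476 background tags limits what KO1 can show.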

Other observations

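The stretch also holds 79 of the 403 tRNA genes that RefSeq lists on chromosomes 1 to 19, X and Y. They all lay outside the histone blocks, and they were examined after summits had been seen near them. A summit within 500 bases was found for 16 of the 79 in WT (20.3%, 95% Wilson interval 12.9 to 30.4), 14 in KO1 (17.7%, 10.9 to 27.6) and 17 in KO2 (21.5%, 13.9 to 31.8). Among the 324 tRNA genes elsewhere the counts were 120 (37.0%), 96 (29.6%) and 126 (38.9%). In the stretch 9 tRNA genes had a summit in all 3 libraries and 57 in none. Of the summits of the stretch, 15, 12 and 14 lay at tRNA genes away from any protein-coding start, compared with 40, 27 and 41 at histone starts. Neighbouring tRNA genes can share a summit, and no test of the difference was made.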
